A study of Mus musculus with 18 samples.

Results

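The proteasome genes were taken as every gene label of the count table that starts with Psma, Psmb, Psmc, Psmd, Psme, Psmf or Psmg and a number, leaving out labels that join 2 genes and pseudogenes. There were 49 of them among 17714 gene labels, with 542 of the table's 114425 isoforms. They comprise the core subunits, the cap, the activators, an inhibitor and assembly chaperones, and 45 of the 49 passed the filter on low counts. Psma8, Psmg3, Psmg4 and Psme3ip1 did not pass it. Psmc3ip, a meiotic recombination factor gene, and Psme3ip1, which encodes a protein that binds an activator, match the symbol pattern without being subunits. Labels joining a neighbouring gene to Psmb10 or Psmg1 held 6 and 5 reads in small extracellular vesicles (sEVs) and 0 in cells, and one joining it to Psmd1 held 0 reads in sEVs and 2 in cells.

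RNA was compared between sEVs, the membrane vesicles that cells release, and the cells they came from, in primary cultures of mouse brain astrocytes, microglia and neurons. Each of the 6 groups (astrocyte sEVs, astrocyte cells, microglia sEVs, microglia cells, neuron sEVs, neuron cells) had 3 libraries of PacBio long reads. The labels give no genotype, strain, age or treatment for any group, and are silent on whether replicates are separate cultures, so each p reflects only how these libraries vary among themselves. All sEV libraries were sequenced in 1 pool and all cell libraries in another, so pool and fraction cannot be told apart.

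The proteasome degrades proteins tagged with ubiquitin. Its barrel is built of outer alpha rings, which gate the entrance, and inner beta rings, which hold the proteolytic sites, and a cap of ATPases and lid subunits recognises, unfolds and feeds in the substrate. In immune cells, and in others under interferon gamma, the catalytic subunits encoded by Psmb5, Psmb6 and Psmb7 are replaced by those of Psmb8, Psmb9 and Psmb10, and the PA28 ring made from Psme1 and Psme2 can take the place of the cap. These replacements shift the peptides made towards those that MHC class I molecules present.

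Because Psmb8 and Psmb9 were read almost in microglia alone, their promoters are set beside those of their constitutive partners. The 250 bases before the start of Psmb8, Psmb9, Psmb5 and Psmb6 are taken from RefSeq on GRCm38.p6, 5′ to 3′ on the gene's strand. The windows are chr17:34197945-34198194 (plus strand) for Psmb8, chr17:34187331-34187580 (minus) for Psmb9, chr14:54617996-54618245 (minus) for Psmb5 and chr11:70525107-70525356 (plus) for Psmb6. Capitals mark matches, on either strand, to the 4 motifs searched.
Psmb8: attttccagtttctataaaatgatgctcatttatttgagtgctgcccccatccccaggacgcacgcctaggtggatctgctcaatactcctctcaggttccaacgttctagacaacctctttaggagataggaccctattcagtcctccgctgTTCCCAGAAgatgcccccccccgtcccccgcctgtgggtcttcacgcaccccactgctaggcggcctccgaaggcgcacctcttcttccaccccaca
Psmb9: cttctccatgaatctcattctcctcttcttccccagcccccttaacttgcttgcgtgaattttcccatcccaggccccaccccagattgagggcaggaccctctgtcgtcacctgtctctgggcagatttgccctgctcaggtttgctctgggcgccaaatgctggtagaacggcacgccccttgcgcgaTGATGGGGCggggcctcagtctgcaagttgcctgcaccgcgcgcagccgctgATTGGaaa
Psmb5: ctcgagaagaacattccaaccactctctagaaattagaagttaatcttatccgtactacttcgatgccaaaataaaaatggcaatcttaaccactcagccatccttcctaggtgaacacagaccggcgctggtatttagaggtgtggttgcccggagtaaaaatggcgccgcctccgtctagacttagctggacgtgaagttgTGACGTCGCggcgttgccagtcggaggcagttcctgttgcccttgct
Psmb6: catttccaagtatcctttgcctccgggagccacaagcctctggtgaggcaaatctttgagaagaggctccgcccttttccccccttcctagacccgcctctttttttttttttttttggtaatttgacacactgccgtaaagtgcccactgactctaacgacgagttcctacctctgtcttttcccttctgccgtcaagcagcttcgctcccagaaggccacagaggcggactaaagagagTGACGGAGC

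The motifs were GAAA, any 2 bases and GAAA again (the interferon-stimulated response element), TTCNNNGAA (the gamma-activated site), TGANNNNGC (the antioxidant response element) and CCAAT. They occurred in 3.46%, 8.13%, 38.7% and 37.5% of the windows of 27025 genes, and in 3, 2, 17 and 15 of the 41 proteasome genes that had a window. Psmb8 held a gamma-activated match 97 to 89 bases before its start. Psmb9 held an antioxidant match 60 to 52 bases before its start and a CCAAT match 8 to 4 bases before it. Psmb5 and Psmb6 held antioxidant matches 47 to 39 and 9 to 1 bases before their starts. No other match to these letters lay in the 4 windows. The windows of Psmb10, Psme1 and Psme2 held no match to any of the motifs and are not printed. A match is a description of sequence only.

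The 18 libraries held 434298 to 683381 reads. Levels are CPM, counts per megaread of library size, with sizes scaled by TMM, a method that sets the bulk of genes equal between libraries, and TMM factors ran from 0.639 to 1.27. No isoform had a value of 1 in any library, the lowest above 0 being 2, and single reads may be hidden in a 0. Astrocyte cultures carried astrocyte markers (16207 RPM in sEVs and 23919 RPM in cells, RPM being reads per megaread of the unscaled totals) and also oligodendrocyte lineage markers (2521 RPM in sEVs and 6319 RPM in cells). Neuron cultures carried neuron markers (1588 RPM in sEVs and 6414 RPM in cells) beside astrocyte markers (3108 RPM in sEVs and 3076 RPM in cells). They also carried oligodendrocyte lineage markers (380 RPM in sEVs and 1126 RPM in cells). Microglia markers summed to 3044 RPM in microglia sEVs and 7707 RPM in microglia cells, to 0 to 18.5 RPM in astrocyte libraries and to 0 in the 6 neuron libraries. Bulk libraries cannot tell fewer cells of a type from less RNA per cell.

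Proteasome reads made up the largest summed share in microglia sEVs. Over all 49 genes they summed to 13605, 14400 and 12567 RPM in microglia sEVs and to 7525, 7197 and 7407 RPM in microglia cells. Neuron sEVs held 5819, 5885 and 6185 RPM, against 7523, 7926 and 7159 RPM in neuron cells. Astrocyte sEVs held 9805, 5701 and 9568 RPM and astrocyte cells 8946, 9860 and 6884 RPM, with the lowest value in sEV replicate 2. The microglia and neuron groups did not overlap between sEVs and cells and the astrocyte groups did. The scaling moved this: on TMM-scaled sizes the sums were 13342 ± 1464 CPM in microglia sEVs and 10886 ± 615 CPM in microglia cells, 6585 ± 197 CPM in neuron sEVs and 6429 ± 317 CPM in neuron cells (SD, n = 3 each).

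**Figure D1:**
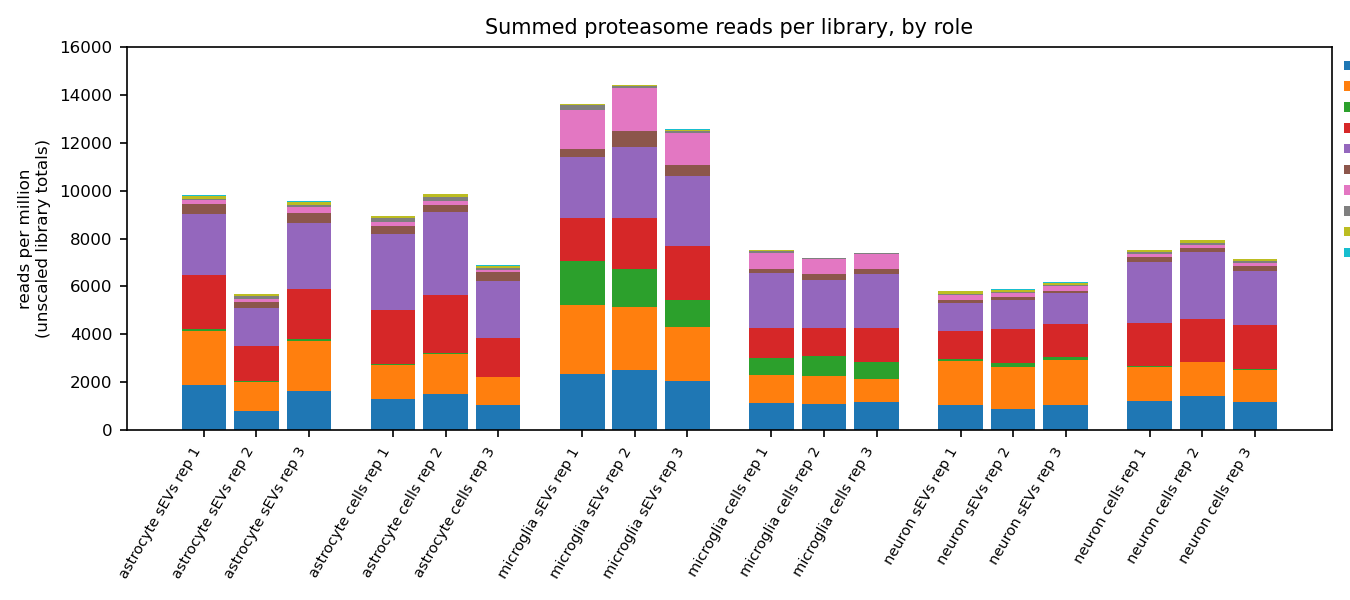
Summed RPM of the 49 proteasome genes (y axis, unscaled totals), stacked by role, for the 18 libraries (x axis). Microglia sEVs sit between 12567 and 14400, above the other libraries, and the immune catalytic and activator blocks are wide in microglia libraries.

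Of the 3 immune catalytic genes, Psmb8 and Psmb9 had few or 0 reads outside microglia, whereas Psmb10 was read in every group. Psmb8, the immune chymotrypsin-like subunit on chromosome 17, had 718, 661 and 565 reads in microglia sEVs and 224, 300 and 339 reads in microglia cells. It had 0 reads in the 6 astrocyte libraries, 0, 2 and 0 in neuron sEVs and 5, 2 and 0 in neuron cells. Its constitutive partner Psmb5 had 69, 45 and 53 reads in microglia sEVs and 33, 38 and 26 in microglia cells. In the same order of replicates Psmb5 had 68, 35 and 73 reads in astrocyte sEVs, 59, 65 and 38 in astrocyte cells, 128, 104 and 123 in neuron sEVs and 85, 119 and 75 in neuron cells. Against a floor of 3 reads per library, Psmb8 was at least 251-fold higher in microglia sEVs than in astrocyte sEVs and at least 184-fold higher in microglia cells than in astrocyte cells.

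Psmb8 thus took 92.1 ± 1.33% of the Psmb8 and Psmb5 reads in microglia sEVs, against 0.314 ± 0.770% in the other sEVs (SD, n = 3 and 6). In cells the shares were 89.6 ± 2.95% in microglia and 1.20 ± 2.23% in the others. These are shares of reads, which count cDNA molecules after amplification, not shares of protein. An exact two-sided permutation test of 3 against 6 libraries gave p = 0.0119 in both fractions, the smallest p its 84 arrangements allow, and 0.0119 again after Benjamini-Hochberg adjustment over 6 such tests. Psmb8 had few or 0 reads outside microglia, so a p at this floor restates those reads and adds no support.

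Psmb9, encoded near Psmb8, is the immune counterpart of Psmb6. Psmb9 had 29, 59 and 55 reads in microglia sEVs and 38, 37 and 35 in microglia cells. Astrocyte sEV replicate 2 had 6 reads and the other 11 libraries had 0. In microglia sEVs it was at least 15.5-fold higher than in neuron sEVs, and in microglia cells at least 24.1-fold higher than in astrocyte cells and 21.5-fold higher than in neuron cells. Its partner Psmb6 stayed far more abundant in reads, with 789, 826 and 796 in microglia sEVs and 243, 283 and 309 in microglia cells. Psmb9 therefore took 5.56 ± 1.75% of the pair in microglia sEVs against 0.483 ± 1.18% in the other sEVs, and 11.8 ± 1.68% in microglia cells against 0% in the other cells (exact permutation test, p = 0.0119 and adjusted p = 0.0119 for each). With 0 to 6 Psmb9 reads in each library outside microglia, these p-values too restate the reads and add no support.

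Psmb10, the immune trypsin-like subunit on chromosome 8, stood at 245, 225 and 200.5 CPM in microglia sEVs and 182, 258 and 199 CPM in microglia cells. Neuron sEVs had 91.2, 162 and 151 CPM, against 23.7, 19.9 and 27.9 CPM in neuron cells. Astrocyte sEVs had 47.8, 21.3 and 51.6 CPM, against 15.8, 20.8 and 21.2 CPM in astrocyte cells. The microglia groups overlapped, the neuron groups lay apart by a wide margin, and the astrocyte groups lay apart narrowly.

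The partner of Psmb10, Psmb7, stood at 81.6, 77.6 and 92.1 CPM in microglia sEVs and 76.6, 125 and 91.6 CPM in microglia cells. It was called in no comparison (edgeR quasi-likelihood test, Benjamini-Hochberg adjusted). Psmb10 took 72.6 ± 3.56% of the pair in microglia sEVs against 41.0 ± 13.9% in the other sEVs, and 68.8 ± 1.5% in microglia cells against 18.6 ± 2.65% in the other cells (exact permutation test, p = 0.0119 and adjusted p = 0.0119 for both). This p is again the smallest that the 84 arrangements allow. Among the other sEVs the shares were 37.2%, 60.2% and 56.7% in neuron sEVs and 30.3%, 27.5% and 34.3% in astrocyte sEVs, with neuron replicate 1 close to astrocyte replicate 3. The largest of these, in neuron sEV replicate 2, lay below the smallest microglia share of 68.5%.

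**Figure D2:**
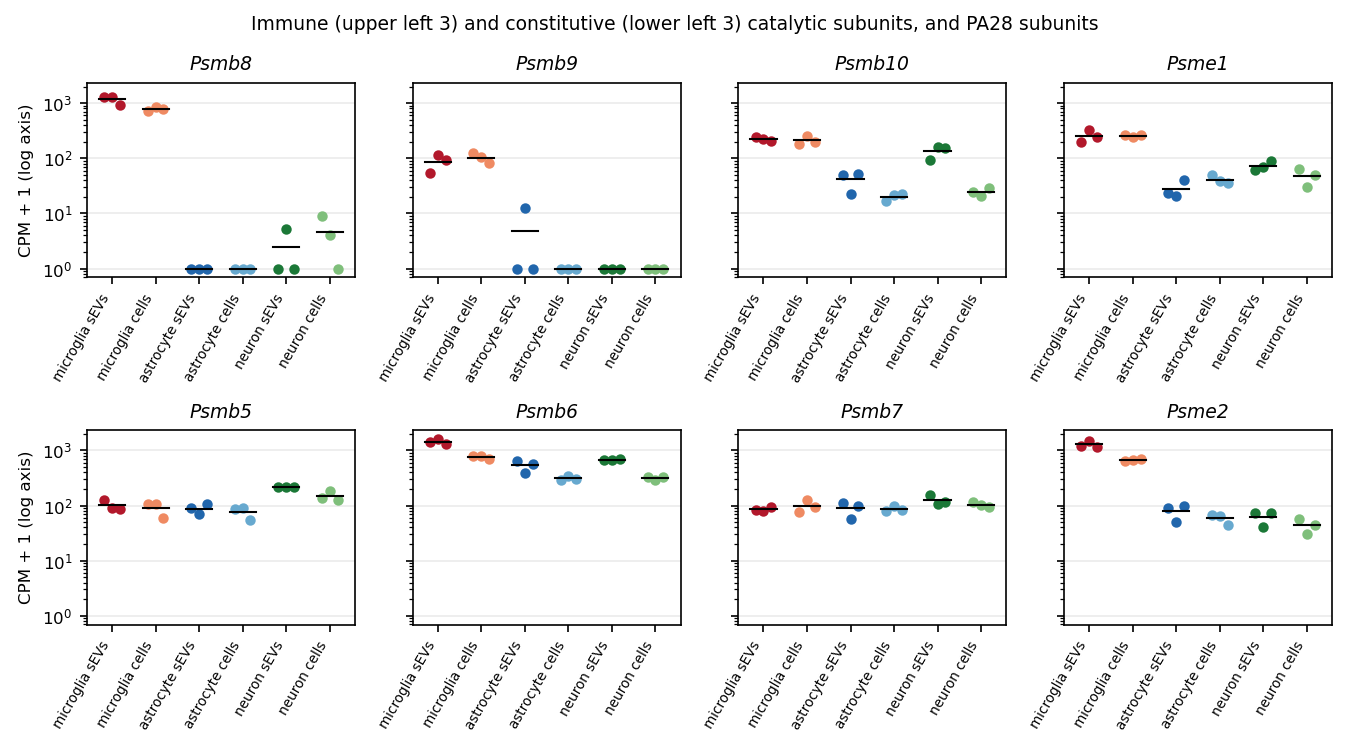
CPM plus 1 on a log axis for 8 genes in the 6 groups; each point is a library and each line a group mean. Outside microglia Psmb8 reaches at most 7.89 CPM and Psmb9 11.6 CPM, whereas Psmb5 lies between 53.7 and 219 in all groups, and Psmb10 in neuron sEVs (91.2 to 162) lies between microglia and neuron cells.

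Both PA28 genes were higher in microglia. Psme2, its beta subunit, stood at 1209, 1510 and 1164 CPM in microglia sEVs and at 632, 668 and 700.4 CPM in microglia cells. In every other library it lay between 29.1 and 97.4 CPM, so that microglia libraries did not overlap with the rest. Psme1, the alpha subunit, stood at 199, 322 and 245 CPM in microglia sEVs and 262, 238 and 268 CPM in microglia cells, and at 19.4 to 87.1 CPM elsewhere. By edgeR's quasi-likelihood test Psme2 was higher by 4.21 log2 in microglia sEVs against the other sEVs (SE 0.26, Benjamini-Hochberg adjusted p = 2.56e-09) and by 3.74 log2 in microglia cells against the other cells (SE 0.26, adjusted p = 6.39e-09). Psme1 was higher by 2.54 and 2.55 log2 in the same comparisons (SE 0.28 for both, edgeR adjusted p = 1.08e-06 and 1.05e-06). The nuclear activators Psme3 and Psme4 were not called in either.

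A broad set of subunits, the immune catalytic and PA28 genes among them, was higher in microglia sEVs than in the other sEVs. Of the 45 tested genes 23 were higher and 2 lower by edgeR's test, where 50.0% of all 8184 tested genes were called, 20.3% as higher and 29.7% as lower. The median log2 difference of the 45 was 0.68, against -0.69 for all tested genes. Higher were 5 of 7 tested alpha ring genes, 2 of 7 constitutive beta ring genes, Psmb10, 3 of 6 ATPases, 7 of 11 other cap subunits, 2 of 4 activators and 1 of 3 cap chaperones. Psmb8 and Psmb9 are among the 23, but they passed the filter only through microglia libraries, so their calls were fixed by it. Without them 21 of 43 were higher, and these 21 still include Psmb10, Psme1 and Psme2. Lower were Psmb4 of the beta ring and the core chaperone gene Psmg1. Leaving out each library in turn gave 22 to 26 called genes, and 21 of the 25 stayed called in all 18 fits, Psmb8 and Psmb9 among them.

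Psma6, an alpha ring subunit, had the smallest p outside the immune genes and PA28. It stood at 578, 631 and 551 CPM in microglia sEVs, against 159, 89.3 and 155 CPM in astrocyte sEVs and 108, 105.5 and 107 CPM in neuron sEVs. It was higher by 2.29 log2 in microglia sEVs (SE 0.19, edgeR adjusted p = 5.55e-08). Psmd10, which encodes gankyrin, a chaperone of cap assembly, stood at 179, 470 and 268 CPM in microglia sEVs, against 41.3, 58.2 and 88.9 CPM in astrocyte sEVs and 54.7, 25.3 and 44.4 CPM in neuron sEVs (2.57 log2, SE 0.32, edgeR adjusted p = 4.51e-06). The groups did not overlap for either gene, though Psmd10 varied more among the microglia libraries.

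Among further core and cap genes, Psmd12 of the lid was higher by 2.00 log2, the ATPase gene Psmc2 by 1.46 log2, the lid deubiquitinase gene Psmd14 by 1.44 log2 and Psmb6 by 1.26 log2 in microglia sEVs against the other sEVs. Their edgeR adjusted p-values ran from 2.33e-05 for Psmb6 to 0.000103 for Psmd14. Psmb4, a beta ring subunit, was lower by 0.82 log2 (SE 0.23, edgeR adjusted p = 0.00617), with 174 ± 36.1 CPM in microglia sEVs, 226 ± 62.0 CPM in astrocyte sEVs and 419 ± 28.8 CPM in neuron sEVs (SD, n = 3 each). Its groups overlapped between microglia and astrocyte sEVs.

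In microglia cells 15 of the 45 genes were higher than in the other cells and 0 lower by edgeR's test, where 42.4% of all genes were called, 18% as higher and 24.4% as lower. Psmb8 and Psmb9, whose calls the filter fixed, are among the 15, which leaves 13 of 43. At an unadjusted p under 0.05, 19 of the 45 passed in either direction. The same test without TMM gave 7 higher and 15 lower of the 45, since it moves the median log2 difference of all genes to -1.43 from the -0.66 found with TMM. The median of the 45 was 0.17 with TMM and -0.63 without. Under that scaling Psma3, Psma4, Psmd7, Psmd11 and Psmd14 turned to negative differences and lost their calls. Leaving out microglia cell replicate 2 or neuron cell replicate 1 gave 9 higher genes.

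Some genes were called in microglia cells with every library left out in turn, and also without TMM. Outside Psmb8 and Psmb9, whose calls the filter fixed, these were Psmb10, Psme1, Psme2, Psmd10 and Psma6. Psma6 stood at 307, 351 and 378 CPM in microglia cells, against 123.3, 129 and 102 CPM in astrocyte cells and 120, 127 and 131 CPM in neuron cells (1.5 log2, SE 0.20, edgeR adjusted p = 8.78e-06). Psmd10 stood at 153, 193 and 215 CPM in microglia cells, against 43.0, 42.9 and 35.3 CPM in astrocyte cells and 26.8, 38.3 and 22.97 CPM in neuron cells (2.43 log2, SE 0.33, edgeR adjusted p = 1.30e-05). Psmb6 and the lid gene Psmd8 were higher by 1.28 and 1.29 log2 (edgeR adjusted p = 2.59e-05 and 0.000257), and both calls were lost without TMM.

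**Figure D3:**
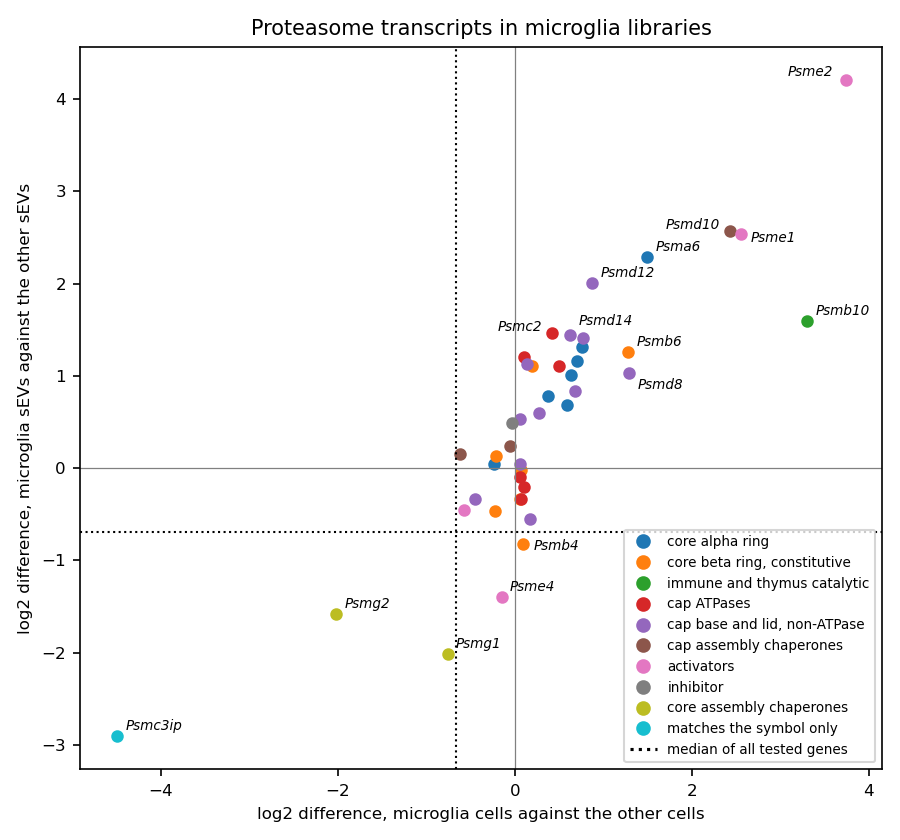
Log2 difference of microglia cells against the other cells (x axis) and of microglia sEVs against the other sEVs (y axis) for each tested proteasome gene except Psmb8 and Psmb9, coloured by role; dotted lines are the medians of all tested genes (-0.66 and -0.69). Psme2, Psmd10, Psme1, Psma6 and Psmb10 lie at the upper right, and Psmb10 has the larger difference among cells (3.30 against 1.59 log2).

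The neuron and astrocyte sides of these comparisons were as follows. In neuron sEVs 2 of 45 genes were higher and 18 lower than in the other sEVs by edgeR's test, where 38.8% of all genes were called (26.8% higher, 12% lower). The higher genes were Psmb4 (1.08 log2, SE 0.21, adjusted p = 0.00064) and Psmb5 (1.22 log2, SE 0.26, adjusted p = 0.00133). Psmb5 stood at 212, 219 and 219 CPM in neuron sEVs, against 87.9, 67.9 and 105 CPM in astrocyte sEVs and 125, 87.4 and 87.1 CPM in microglia sEVs. The lower genes covered 4 of 7 alpha ring genes, 3 of 6 ATPases and 6 of 11 other cap subunits. Psmb9 is also among the 18, but it passed the filter only through microglia libraries, so its call was fixed by it. These contrasts share libraries with the microglia contrast, and the mean of the other sEVs includes microglia.

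In neuron cells 1 gene was higher, Psmb5 (0.82 log2, SE 0.26, edgeR adjusted p = 0.0273), and 7 were lower of the 45, where 27.4% of all genes were called (19.7% higher, 7.66% lower). The 7 were Psma6, Psmb6, Psmb10, Psmd10, Psmd11, Psme1 and Psme2. Without TMM 3 were higher and 3 lower, and leaving out any of the 3 neuron cell libraries gave 3 or 4 called genes. In astrocyte cells 1 gene was higher and 6 lower (3 and 4 without TMM), where 15.9% of all genes were called (10.8% higher, 5.10% lower), and leaving out replicate 1 or 3 of these cells gave 4. In astrocyte sEVs 1 was higher and 7 lower (5 and 4 without TMM), where 20.0% were called (14.2% higher, 5.74% lower). Each lower gene in neuron cells, astrocyte cells and astrocyte sEVs was called higher in microglia of the same fraction. The mean each was set against includes microglia. The lower genes of both astrocyte comparisons include Psmb8, which passed the filter only through microglia libraries, so its calls there were fixed by it. In both, the higher gene was Psmd5, which encodes a chaperone of cap assembly. It stood at 221 ± 28.9 CPM in astrocyte sEVs, against 135 ± 69.7 CPM in microglia sEVs and 66.7 ± 22.4 CPM in neuron sEVs (1.22 log2, edgeR adjusted p = 0.0135), and its microglia and astrocyte libraries overlapped. In cells it stood at 209 ± 54.0 CPM in astrocytes, 95.9 ± 28.8 CPM in microglia and 103 ± 8.36 CPM in neurons (1.07 log2, edgeR adjusted p = 0.0314). This call was lost without any 1 of the 3 astrocyte cell libraries and in 8 of 18 such fits in all, and the sEV call without astrocyte sEV replicate 3. Both were lost with full-splice matches alone.

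The sEV comparison addresses which proteasome transcripts the vesicles carry relative to their cells. Psmb6 was higher and Psmd3 lower in sEVs of all 3 cell types. Psmb6 stood at 642, 390 and 576 CPM in astrocyte sEVs, against 291, 342 and 305 CPM in astrocyte cells. In microglia it stood at 1430, 1603 and 1308 CPM in sEVs, against 776, 801.5 and 707 CPM in cells. In neurons it stood at 682, 671 and 690 CPM in sEVs, against 334, 285 and 323 CPM in cells. No library overlapped in any of the 3, and the log2 differences were 0.78, 0.93 and 1.12 (SE 0.22 for each, edgeR adjusted p = 0.0185, 0.0105 and 0.00114). Psmd3, a scaffold subunit of the lid, went the other way. It stood at 36.2, 31.0 and 40.1 CPM in astrocyte sEVs against 125, 104 and 103 CPM in cells, and at 21.8, 9.71 and 36.2 CPM in microglia sEVs against 89.4, 82.1 and 66.4 CPM in cells. In neurons it stood at 9.95, 27.4 and 32.0 CPM in sEVs, against 129, 98.0 and 91.9 CPM in cells. The log2 differences were -1.62, -1.79 and -2.20 (SE 0.44, 0.47 and 0.46, edgeR adjusted p = 0.0149, 0.0175 and 0.0017), again with no overlap. Psmb6 and Psmd3 were chosen by their calls, so the lack of overlap adds no support to them. The share of all genes called alike in all 3 cell types is not given.

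Some of these calls rested on single libraries or on the scaling. The astrocyte call of Psmb6 was lost without replicate 1 or 3 of either astrocyte group, and its microglia call without microglia cell replicate 3 or microglia sEV replicate 2. The astrocyte call of Psmd3 was lost without astrocyte cell replicate 1, and its microglia call without microglia cell replicate 1 or 2 or microglia sEV replicate 2, and also without TMM. Averaged over the cell types, both kept their call in each of the 24 alternatives run (Psmb6 0.94 log2, SE 0.13, edgeR adjusted p = 1.69e-05; Psmd3 -1.87 log2, SE 0.26, edgeR adjusted p = 2.48e-05).

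In astrocyte sEVs 3 of the 45 genes were higher and 1 lower than in astrocyte cells, where 20.3% of all genes were called by edgeR's test (8.04% higher, 12.2% lower), and at an unadjusted p under 0.05 there were 8. Besides Psmb6 and Psmd3 these were Psmb4 and Psmb10. Psmb4 stood at 198, 182 and 297 CPM in astrocyte sEVs, against 98.9, 129 and 89.0 CPM in astrocyte cells (1.09 log2, SE 0.26, edgeR adjusted p = 0.00534). Its libraries did not overlap, which adds no support to a call chosen by its p. Psmb10 was higher by 1.07 log2 (SE 0.36, edgeR adjusted p = 0.0458), a call lost in 16 of the 18 fits that left out 1 library. Without replicate 1 of the cells 1 of the 45 genes was called, and without cell replicate 3 or sEV replicate 1 or 3 there were 2. The libraries of astrocyte sEVs were the least alike of the 6 groups (r = 0.732 to 0.809 across genes), and replicate 1 held 67560 RPM of the predicted gene Gm42047.

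In microglia sEVs 3 of the 45 genes were higher and 2 lower than in microglia cells, where 11.9% of all genes were called (2.70% higher, 9.18% lower), and 8 passed an unadjusted p under 0.05. The higher ones beside Psmb6 were Psma6 (0.76 log2, SE 0.23, edgeR adjusted p = 0.0399) and Psme2 (0.96 log2, SE 0.30, edgeR adjusted p = 0.0442). The lower one beside Psmd3 was Psmd13 of the lid, which stood at 103, 62.1 and 112 CPM in microglia sEVs, against 201, 156 and 201 CPM in microglia cells (-1.01 log2, SE 0.30, edgeR adjusted p = 0.0386). For these 5 genes, chosen by their adjusted p, sEV and cell libraries did not overlap, which adds no support to the calls. Without TMM 12 were higher and 0 lower, with the median of all genes at 0.14 in place of 0 and that of the 45 at 0.67 in place of 0.09. Of the 5 genes 0 kept their call in all 18 fits that left out 1 library, and 15 of these fits gave 0 to 3 called genes, the lowest without microglia sEV replicate 2. Psmb8 and Psmb9 were not called between microglia sEVs (1171 ± 210 and 85.8 ± 31.2 CPM) and microglia cells (780 ± 67.4 and 102 ± 20.7 CPM; SD, n = 3 each).

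Neuron sEVs held more Psmb10, Psmb4, Psmb6 and Psmb1 and less Psmd3, Psmd7 and Psmd14 than neuron cells. Of the 45 genes 4 were higher and 9 lower than in neuron cells by edgeR's test, where 31.4% of all genes were called (13.6% higher, 17.8% lower), so the share of the 45 called, 28.9%, was near that of all genes. The 4 higher genes all encode beta ring subunits, 3 constitutive (Psmb1, Psmb4 and Psmb6) and 1 immune (Psmb10). The 9 lower genes were 6 of 11 non-ATPase cap subunits (Psmd2, Psmd3, Psmd6, Psmd7, Psmd12 and Psmd14), 2 of 6 ATPases (Psmc4 and Psmc6) and 1 beta ring gene, Psmb2. None of the 7 tested alpha ring genes was called. The median of the non-ATPase cap subunits was -0.97 log2 and that of the constitutive beta ring 0.56 log2, against -0.10 for all tested genes. Without TMM 3 were higher and 15 lower, with a median of -0.47 for all genes and -0.37 for the 45.

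Psmb10 was higher by 2.49 log2 in neuron sEVs than in neuron cells (SE 0.36, edgeR adjusted p = 6.66e-05). Psmb4 stood at 420, 390.3 and 448 CPM in neuron sEVs, against 151, 141 and 130 CPM in neuron cells (1.57 log2, SE 0.26, edgeR adjusted p = 0.000201). Psmb1 stood at 313, 354 and 324 CPM in neuron sEVs, against 186, 181 and 146 CPM in neuron cells (0.95 log2, SE 0.25, edgeR adjusted p = 0.00842), a call lost without TMM or without neuron cell replicate 3. For these 3 genes, chosen by their p, sEV and cell libraries lay apart, which adds no support to the calls.

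Among the lower genes Psmd14, the deubiquitinase that removes ubiquitin chains, stood at 39.8, 82.3 and 67.5 CPM in neuron sEVs, against 177, 190 and 130 CPM in neuron cells (-1.39 log2, SE 0.30, edgeR adjusted p = 0.00216). Psmd7, its partner in the lid, stood at 71.3, 31.6 and 96.0 CPM in neuron sEVs, against 210, 256 and 172 CPM in neuron cells (-1.67 log2, SE 0.37, edgeR adjusted p = 0.00235). Psmb2 stood at 82.9, 54.9 and 69.3 CPM in neuron sEVs, against 189, 133 and 148 CPM in neuron cells (-1.18 log2, SE 0.26, edgeR adjusted p = 0.00217). The ATPase gene Psmc6 stood at 66.3, 67.5 and 87.1 CPM in neuron sEVs, against 188, 217 and 176 CPM in neuron cells (-1.39 log2, SE 0.32, edgeR adjusted p = 0.00331). For these 4 genes, chosen in the same way, sEV and cell libraries also lay apart. These 4 calls with those of Psmd3, Psmb4, Psmb6 and Psmb10 were kept in each of the 18 fits that left out 1 library.

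The remaining lower genes in neuron sEVs had differences of -0.75 log2 (Psmc4), -0.97 log2 (Psmd2), -1.10 log2 (Psmd6) and -1.26 log2 (Psmd12), with edgeR adjusted p-values of 0.0436, 0.0284, 0.0167 and 0.029. Each lost its call in some of these fits, Psmc4 in 11, Psmd12 in 5, Psmd2 in 4 and Psmd6 in 3 of 18. Neuron markers summed to 1588 RPM in neuron sEVs and 6414 RPM in neuron cells, with 0 of 9 tested markers higher and 4 lower. Astrocyte markers summed to 3108 RPM in neuron sEVs and 3076 RPM in neuron cells, but 1 of 7 tested was higher and 3 were lower (median -3.08 log2). Aldoc, the higher one, averaged 1147 CPM in neuron sEVs and 385 CPM in neuron cells, and Slc1a3, one of the lower, 37.2 CPM in neuron sEVs and 890.3 CPM in neuron cells. The part of these marker shifts in the proteasome differences was not tested. The ATPase gene Psmc1 had 22 reads in neuron cell replicate 2, against 252 and 242 in replicates 1 and 3. Its difference between neuron sEVs and cells was 0.60 log2 with that library and 0.06 log2 without it, and it was not called in either fit (edgeR adjusted p = 0.428 and 0.976).

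**Figure D4:**
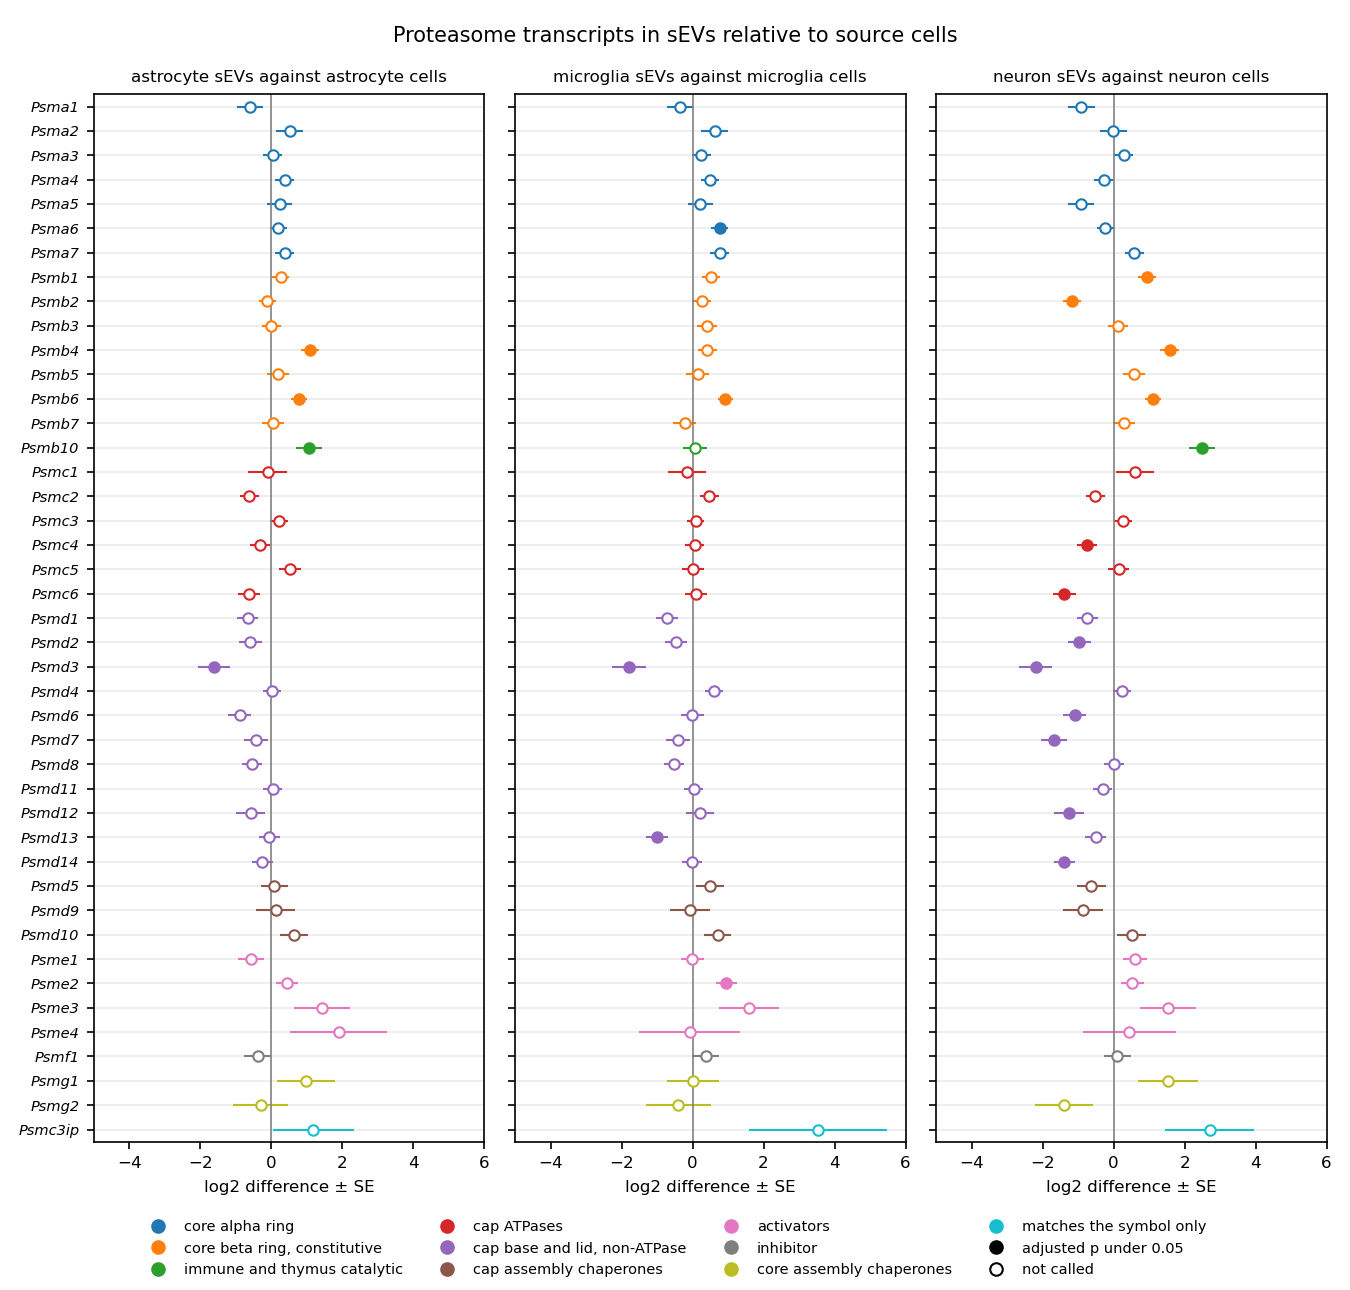
Log2 difference ± SE of sEVs against source cells for each tested proteasome gene except Psmb8 and Psmb9, by cell type, coloured by role; filled points have an edgeR adjusted p under 0.05. In neurons Psmb4 (1.57) lies to the right and Psmd3 (-2.20), Psmd7 (-1.67) and the beta ring gene Psmb2 (-1.18) to the left, and Psmb6 and Psmd3 are filled in all 3 panels.

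Averaged over the 3 cell types, 9 of the 45 genes were higher and 9 lower in sEVs, where 33.9% of all genes were called by edgeR's test (14.5% higher, 19.5% lower). The lower genes comprised 7 of 11 non-ATPase cap subunits, Psmc6 and the alpha ring gene Psma1. The higher genes comprised Psmb1, Psmb4 and Psmb6 of the beta ring, Psmb10, the alpha ring gene Psma7, the activator genes Psme2 and Psme3, Psmd10 and Psmc3ip. Psmc3ip and Psme3ip1 together reached at most 10.4 RPM in any cell library. Psmc3ip passed the filter only through sEV libraries, so its call was fixed by it. The calls of Psmd10, Psmc3ip and Psma1 were lost in 15, 13 and 9 of 18 fits that left out 1 library. Psmb4 differed by 1.03 log2 (SE 0.15, edgeR adjusted p = 3.04e-05) and Psmb10 by 1.21 log2 (SE 0.20, edgeR adjusted p = 0.000135). Of the lower genes Psmd1, a large scaffold of the cap base, differed by -0.71 log2 (SE 0.17, edgeR adjusted p = 0.00356), Psmd7 by -0.84 log2 (SE 0.20, adjusted p = 0.00368) and Psmd2, the other scaffold, by -0.67 log2 (SE 0.18, adjusted p = 0.00777). Psmd1 stood at 204, 159 and 153 CPM in astrocyte sEVs against 274, 307 and 237 CPM in astrocyte cells, at 163, 215 and 95.3 CPM in microglia sEVs against 259, 201 and 320.4 CPM in microglia cells, and at 101, 160.3 and 148 CPM in neuron sEVs against 207, 256 and 223 CPM in neuron cells. Psmd2 stood at 322, 188 and 321 CPM in astrocyte sEVs against 387, 461 and 405 CPM in astrocyte cells, at 221, 309 and 468 CPM in microglia sEVs against 374, 385 and 613 CPM in microglia cells, and at 151, 173 and 199 CPM in neuron sEVs against 350.1, 424 and 248 CPM in neuron cells. For both genes the sEV and cell libraries lay apart in astrocytes and neurons and overlapped in microglia.

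Whether the sEV difference itself varied between the cell types was tested as an interaction. Psmb10 was the only 1 of the 45 genes called, where 3.96% of all genes were (edgeR adjusted p = 0.0212). Its sEV difference was 1.42 log2 larger in neurons than in astrocytes and differed by -1.0 log2 between microglia and astrocytes. The call was lost without TMM, without the filter on low counts, with full-splice-match isoforms alone and in 7 of 18 fits that left out 1 library. These 7 left out microglia cell replicate 2 or 3, any of the neuron cell replicates, or neuron sEV replicate 2 or 3. Psmb2 came next (edgeR adjusted p = 0.054) and was not called.

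At the level of isoforms, most proteasome genes had 1 dominant transcript. Over the 49 genes the isoform with most reads took 14.8% (Psme4) to 100% of a gene's reads. Full-splice matches, which share every junction with an annotated transcript, made up 93.4 ± 0.209% of proteasome reads in microglia sEVs and 92.1 ± 0.612% in microglia cells, 86.0 ± 4.81% in neuron sEVs and 89.5 ± 2.33% in neuron cells, and 92.1 ± 3.21% in astrocyte sEVs and 89.3 ± 1.03% in astrocyte cells. The reads of all other genes were lower in this share in sEVs than in cells, at 77.4 ± 3.31% in neuron sEVs and 85.8 ± 1.42% in neuron cells (SD, n = 3 each).

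Isoforms were tested one by one in the same way. Of 55 tested proteasome isoforms 2 were higher and 3 lower in astrocyte sEVs, where 15.5% of all isoforms were called by edgeR's test (3.22% higher, 12.3% lower). In microglia sEVs 1 was higher and 3 lower, where 9.36% were called (1.36% higher, 8% lower). In neuron sEVs 3 were higher and 14 lower, where 27.2% were called (6.26% higher, 20.9% lower). Leaving out 1 library gave 2 to 5 called isoforms in astrocytes, 1 to 5 in microglia and 8 to 20 in neurons. The count moved by over 1.5 times in 6, 4 and 3 of 18 such fits, and was lowest without microglia cell replicate 1 in microglia and without neuron cell replicate 1 in neurons.

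A pair of isoforms was read in every cell library and in no sEV library. Isoform 4013 of Psma3, a full-splice match ending where the annotated transcript does, had 0 reads of 506 Psma3 reads in astrocyte sEVs, 0 of 755 in microglia sEVs and 0 of 529 in neuron sEVs. It had 14, 25 and 30 reads in astrocyte cells, 10, 24 and 10 in microglia cells and 19, 14 and 18 in neuron cells. Isoform 15776 of Psmc4, a combination of known junctions with a retained intron, had 0 reads of 1474 Psmc4 reads in the 9 sEV libraries. It had 23, 21 and 23 reads in astrocyte cells, 5, 2 and 5 in microglia cells and 18, 29 and 16 in neuron cells. Both passed the filter only through the cell libraries and were chosen by their adjusted p-values, so these reads are a description without a test. The counts of lower isoforms above include both in each cell type. By the same choice, isoform 11734 of Psmb4 was higher in astrocyte and neuron sEVs (0.95 and 1.26 log2, edgeR adjusted p = 0.0145 and 0.00205). Isoform 2729 of Psmb6 was higher in astrocyte, microglia and neuron sEVs (0.70, 0.92 and 0.88 log2, edgeR adjusted p = 0.0335, 0.0141 and 0.00745). Isoform 5507 of Psmd6 was lower in astrocyte and neuron sEVs (-1.10 and -1.38 log2, edgeR adjusted p = 0.0296 and 0.0067). Isoform 411 of Psmd1 was lower in microglia and neuron sEVs (-1.07 and -1.09 log2, edgeR adjusted p = 0.0359 and 0.0143). Isoform 9843 of Psmd14 was lower in neuron sEVs (-1.77 log2, edgeR adjusted p = 0.000948).

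Isoform usage, the share of each isoform within its gene, could be tested for 10 proteasome genes by edgeR's diffSpliceDGE with Simes p-values. Psmc4 was called in astrocytes (Benjamini-Hochberg adjusted p = 0.028), where 2.00% of all 1752 tested genes were called. In microglia and neurons 0 of the 10 were called, where 2.40% and 2.00% of all genes were, and Psmc4 had adjusted p-values of 0.123 and 0.0636. The astrocyte call was lost in 15 of 18 fits that left out 1 library. Isoform 15776, with 0 reads in sEVs, is among the tested isoforms of Psmc4 and passed the filter only through cell libraries. The usage p-values of Psmc4 therefore restate its reads and add no support.

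The reads of Psmb10 in neuron libraries lay on several isoforms, with isoform 17767 holding 85 of 217 reads in neuron sEVs and 28 of 45 in neuron cells. Usage of Psmb10 did not pass the test between neuron sEVs and cells (diffSpliceDGE, Benjamini-Hochberg adjusted p = 1). The full-splice match 17767 held 18, 34 and 33 reads there, against 12, 3 and 13 in neuron cells, and was higher by 1.53 log2 (SE 0.49, edgeR adjusted p = 0.0314). Isoform 59219 held 23, 13 and 15 reads in neuron sEVs against 3, 2 and 2 in neuron cells, and 0 in the astrocyte and microglia libraries. Isoform 46049 held 6, 8 and 25 reads in neuron sEVs against 0, 2 and 0 in neuron cells. In microglia sEVs isoform 17767 held 135, 116 and 116 of the gene's 135, 116 and 122 reads.

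In single libraries the reads of a gene sat on another isoform than in the rest. Psmc2 had 0 reads of isoform 13440, otherwise its main one, in astrocyte sEV replicate 3 and neuron cell replicate 1, where isoform 57178 held 148 and 134 reads. Psmc3 had 186 reads of isoform 107378 and 0 of isoform 9983 in neuron sEV replicate 2. Psmd4, the ubiquitin receptor gene, had 161 and 103 reads of isoform 64383 and 0 of isoform 11744 in neuron sEV replicates 1 and 2, and 93 reads of it in microglia sEV replicate 1. Psma3 had 125 and 113 reads of isoform 80182 in neuron sEV replicates 2 and 3, and 28 in astrocyte sEV replicate 2. Psme1 had 92 of 117 reads on isoform 69390 in neuron sEVs, in all 3 libraries, against 6 of 89 in neuron cells and 0 in astrocyte and microglia libraries. Usage of Psme1 was not called in neurons (diffSpliceDGE, Benjamini-Hochberg adjusted p = 0.106). Psme3 had most reads on another isoform than 3244, otherwise its main one, in astrocyte and neuron sEV replicate 3. Isoform 107378 of Psmc3 is outside the annotated junctions, and the others named here are full-splice or incomplete-splice matches. Whether the difference arose in the molecules or in the assignment of reads was not tested. Sums per gene do not depend on it, and the counts of isoforms called above do.

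**Figure D5:**
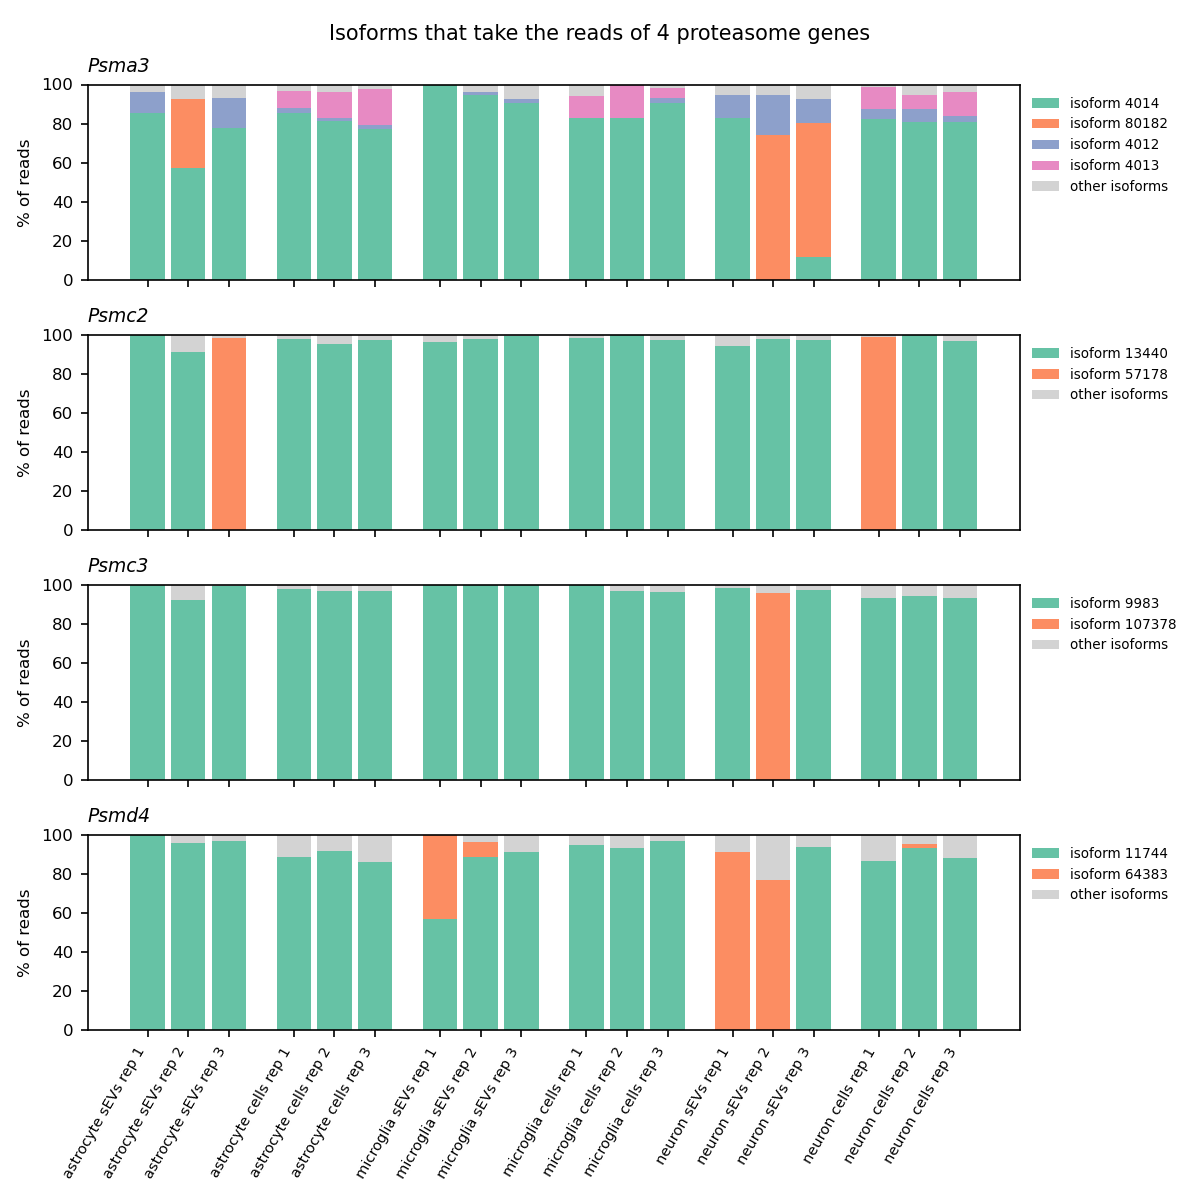
Share of a gene's reads (y axis, percent) held by named isoforms of Psma3, Psmc2, Psmc3 and Psmd4 in the 18 libraries (x axis). The orange isoforms replace the green ones in single libraries, such as Psmc2 in astrocyte sEV replicate 3 and neuron cell replicate 1, and isoform 4013 of Psma3 (pink) is drawn in the 9 cell libraries alone.

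Genes that work beside the proteasome were taken from 3 lists. Of 11 tested subunit, assembly and regulator genes outside the symbol pattern, 1 was higher and 1 lower in astrocyte sEVs, 1 higher and 0 lower in microglia sEVs, and 1 higher and 3 lower in neuron sEVs than in the source cells, where 20.3%, 11.9% and 31.4% of all genes were called. The higher gene was Pomp in each, which encodes the maturation factor that completes the beta rings. Pomp stood at 295 ± 75.6 CPM in astrocyte sEVs and 139 ± 18.1 CPM in astrocyte cells, 394 ± 43.1 CPM in microglia sEVs and 223 ± 21.2 CPM in microglia cells, and 440.5 ± 107 CPM in neuron sEVs and 157 ± 13.03 CPM in neuron cells (SD, n = 3 each). Its edgeR adjusted p-values were 0.00477, 0.0396 and 0.000279. The cap ubiquitin receptor gene Adrm1 was lower in astrocyte and neuron sEVs, with differences of -0.89 and -1.10 log2, and the cap deubiquitinase gene Usp14 in neuron sEVs with -3.13 log2 (edgeR adjusted p = 0.0292, 0.00654 and 0.000136).

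Of 14 ubiquitin and delivery genes, 3 were higher and 3 lower in astrocyte sEVs, 1 and 1 in microglia sEVs, and 2 and 2 in neuron sEVs by edgeR's test, where 20.3%, 11.9% and 31.4% of all genes were called. The segregase gene Vcp was lower in all 3, and stood at 179 ± 37.5 CPM in neuron sEVs and 495 ± 45.4 CPM in neuron cells (-1.46 log2, edgeR adjusted p = 0.00026).

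Peptide loading genes and interferon regulators, which in textbook accounts are induced with the immune subunits, formed a list of 12 genes. Several, such as Cd274 with 0 CPM outside microglia, passed the filter through microglia libraries alone, so no count of microglia against the other cell types is given. A gene that passed through microglia cells alone would also tend to come out lower in microglia sEVs. How many of the 12 passed in that way was not counted. Between sEVs and source cells 0 of 12 were higher and 7 lower in microglia (median -2.46 log2), where 11.9% of all genes were called and 9.18% were lower. In the other sEVs 0 were higher and 6 lower, both in astrocytes (median -2.17 log2, 20.3% of all genes called) and in neurons (median -2.68 log2, 31.4% called). Tap1, a peptide transporter subunit encoded beside Psmb9, stood at 98.9 ± 54.1 CPM in microglia sEVs and 1469 ± 125 CPM in microglia cells (-3.89 log2, SE 0.51, edgeR adjusted p = 0.000111). H2-D1, a heavy chain of MHC class I, stood at 881 ± 175 CPM in microglia sEVs and 11455 ± 875 CPM in microglia cells (-3.70 log2, edgeR adjusted p = 3.68e-06). In the same libraries Psmb8, Psmb9, Psmb10 and Psme1 were not called. Psme2 was higher in sEVs, a call lost in 15 of the 18 fits that left out 1 library. The difference between the genes was not tested.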

How the data were processed

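Polyadenylated RNA from brain cell cultures and their sEVs was sequenced as full-length cDNA on PacBio, 3 libraries in each of 6 groups. Per the labels' protocols, cDNA was made with a low-input kit and reamplified. The submitters' processing notes name minimap2 and GRCm39; the isoform caller, annotation and versions are not given here. The deposited table holds raw counts per isoform, made by the authors, with a gene symbol and a structural category; 0 value columns were left unmapped.

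Isoform counts were added up per gene label, and all 17714 labels entered 1 fit of 18 libraries in edgeR 4.0.16 (R 4.3.3): filterByExpr by group, TMM, a mean per group and quasi-likelihood F tests, Benjamini-Hochberg adjusted over the 8184 genes kept, with a threshold of 0.05. Isoforms (9370 kept) were tested likewise, and usage with diffSpliceDGE in 1752 genes. The common dispersion was 0.31. The contrasts were sEVs against source cells per cell type, their mean, their interaction, and each cell type against the average of the remaining cell types. Read shares of the pairs Psmb8/Psmb5, Psmb9/Psmb6 and Psmb10/Psmb7 were compared by exact permutation. The tests were checked on simulated data. Long reads carry no molecular identifiers, so floors of 3 reads cover counting error only; single counts from 434298 to 683381 reads per library limit low genes most. Processed pseudogenes and joined labels can take reads of a gene, which makes low values uncertain.

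Values in every library are given for the 3 pairs, Psme1, Psme2 and the up to 4 called genes per direction with the smallest p in each sEV comparison; other called genes have log2 differences or means. Up to 4 isoforms per cell type and 4 genes per further list were named by smallest p. Overlap of libraries is stated as a description of named genes. The share of all genes without overlap was not computed. Psma6, Psmd10, Psmd5, Psmb5, Psmc6 and Psmc1 are given in more detail, and the isoforms of Psmb10, Psmc2, Psmc3, Psmd4, Psma3, Psme1 and Psme3 were singled out, after their values were seen. The genes, lists and this rule were chosen with earlier results of these data known. Promoter sequences are RefSeq's on GRCm38.p6, matched by symbol for 41 of 49 genes. Alternatives were DESeq2 1.42.0, no TMM, no filter, full-splice matches alone, a replicate block, the compared groups alone and leaving out each library.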

Additional observations from a re-analysis of the deposited data

Results flagged for a closer look

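Psmb10, the gene of the immune trypsin-like subunit, had an sEV difference that varied between the cell types by a test of the difference itself (edgeR interaction, Benjamini-Hochberg adjusted p = 0.0212). It was 2.49 log2 in neurons, 1.07 log2 in astrocytes and 0.07 log2 in microglia. It was called in none of the fits without TMM, without the low-count filter or with full-splice matches alone, and in 11 of the 18 fits that left out 1 library. Groups of 3 libraries are too small for a test of outlying libraries.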

How the results depend on the processing

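Counts of called proteasome genes (of 45) moved with the settings as follows, and the cause was not tested unless stated. With DESeq2 they were 8 in astrocyte and 8 in microglia sEVs against their cells (4 and 5 with edgeR), 11 in astrocyte cells (7) and 14 in astrocyte sEVs (8) against the other cell types, and 7 for the interaction (1). Without TMM they were 12 in microglia sEVs against cells and 11 for the interaction, Psmb10 not among them. Without the filter on low counts, where more genes share the adjustment, they were 0 in astrocyte sEVs, 0 in microglia sEVs, 9 for the mean (18), 3 in neuron cells (8), 5 in astrocyte sEVs against the other sEVs and 0 for the interaction. With full-splice matches alone they were 3 in microglia sEVs against cells, 5 in neuron cells and 0 for the interaction. With only the groups compared they were 9 in microglia sEVs against cells and 16 in neuron cells; that setting was not run for the mean and the interaction. Leaving out both libraries with most Gm42047 (astrocyte and neuron sEV replicate 1; added after seeing the data), they were 2 in astrocyte and 3 in microglia sEVs against cells.

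Leaving out each library gave 1 to 4 in astrocyte, 0 to 6 in microglia and 9 to 17 in neuron sEVs against cells, 14 to 21 for the mean and 0 to 6 for the interaction. Against the other cell types it gave 4 to 8 in astrocyte, 9 to 17 in microglia and 3 to 9 in neuron cells, and 7 to 10 in astrocyte, 22 to 26 in microglia and 17 to 22 in neuron sEVs. Called isoforms were 9, with DESeq2, in astrocytes (5) and 9 in microglia (4), 10 in microglia without TMM, and 2, 1 and 2 (neurons, 17) with a filter on the total of 10 reads alone. They ranged over 2 to 5, 1 to 5 and 8 to 20 with a library left out. Genes with changed usage were 2, 1 and 3 with an F test (1, 0 and 0 with Simes), and 0 to 1, 0 and 0 to 1 with a library left out.

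In microglia cells without TMM, Psma3 (-0.22), Psma4 (-0.091), Psmd7 (-0.022), Psmd11 (-0.13) and Psmd14 (-0.17 log2) turned negative. Of 124 calls of a gene in a comparison, 68 were kept under all alternatives run. The 68 include calls of Psmb8 and Psmb9 that the filter fixed. The shares of the immune subunits kept their side throughout. Their adjusted p was up to 0.0357 by exact permutation with a library left out and 0.037 with the replicate block. Both are the smallest p these permutations allow, 0.0357 being that with a microglia library left out. For Psmb8 and Psmb9 the kept side restates their few reads outside microglia. Correlations of deviations from group means between sEV and cell libraries ran from -0.0815 to 0.0795. In neurons, pairs with the same replicate number gave 0.0460, 0.0553 and 0.0568, and pairs with different numbers -0.0465 to -0.00995. In astrocytes and microglia both kinds of pair had both signs. Whether replicate numbers pair the samples was not tested. With the replicate block 2 genes were called in microglia sEVs against cells, and 3 isoforms in astrocytes and 2 in microglia. Low depth limits genes of few reads, such as Psmb9 and Psmd3.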
